A study of Mus musculus with 11 samples.

Results

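The interleukin-1 family genes of mice with obesity-related alcohol-induced acute pancreatitis (OA-AP) were followed in the pancreas and in epididymal adipose tissue. They were taken by gene name from the count tables of both tissues: the ligands Il1a, Il1b, Il18 and Il33, the receptor antagonist Il1rn, the receptors Il1r1, Il1r2, Il1rl1 and Il1rap, and the adaptor Myd88. All 10 were found in both tables, among 54532 genes listed for the pancreas and 46078 for adipose tissue, of which 45260 were in both. RNA was sequenced from whole tissue of wild type mice labelled as C57BL/6 and 16 weeks old, which the study's methods give as male C57BL/6J. The diet of control mice held 10 kcal% fat for 12 weeks, and they were injected with saline. OA-AP mice, labelled Model, ate a diet with 60 kcal% fat for 12 weeks and were then given 2 intraperitoneal injections of ethanol at 2 g/kg, 1 h apart, and both tissues were taken at 12 h from the first of these. Diet and ethanol therefore changed together between the groups, and neither lean mice given ethanol nor obese mice given saline were among the 11 libraries, so that the effects of diet, ethanol and pancreatitis cannot be told apart. There were 2 control and 3 OA-AP libraries of pancreas, and 3 of each group of adipose tissue. The labels give no animal numbers, so p-values measure the spread between these libraries.

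Interleukin-1 is an early alarm signal of inflammation. Il1a and Il1b encode its 2 forms, IL-1α and IL-1β, both of which bind the receptor Il1r1, which then recruits the accessory chain Il1rap. The joined intracellular TIR domains bind the adaptor Myd88, which assembles the IRAK kinases and Traf6 and leads to NF-κB and MAP kinase activity and to the transcription of chemokines and acute-phase genes. The signal is limited at several points: Il1rn encodes an antagonist that occupies Il1r1 without recruiting Il1rap, and Il1r2 encodes a decoy receptor that binds IL-1 but lacks a TIR domain. Il33, a nuclear cytokine of stromal and epithelial cells that is set free on injury, signals through Il1rl1 (also called ST2) with Il1rap, and a soluble form of Il1rl1 is a decoy for it. Il18 uses its own receptor pair and the same adaptor. In obese adipose tissue IL-1β is made largely by myeloid cells and is known for impairing insulin action, and in acute pancreatitis it is among the cytokines that accompany tissue injury.

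The pancreas libraries held between 14188832 and 17238919 counts on genes and the adipose libraries between 20825177 and 27928097. Expression is given as CPM, the counts of a gene set to a common library total after scaling with edgeR's TMM factors. A gene was called when edgeR's quasi-likelihood test gave a Benjamini-Hochberg adjusted p under 0.05 over all tested genes and the fold change was at least 1.5. Every adipose library held Adipoq, the fat cell hormone adiponectin, at 2525 to 3752 CPM, and Adipoq had at most 1 count in each pancreas library. Markers of the epididymis, which lies next to this fat pad, summed to at most 0.148 CPM in adipose tissue. A list of acinar genes of the pancreas summed to 11000 CPM in adipose Control replicate 2 and to 197 to 247 CPM in the other adipose libraries. Each adipose call of a member was therefore also taken without that library, as given below. In bulk tissue fewer cells of a type and less RNA per cell cannot be told apart.

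The receptors lie side by side. On chromosome 1 of GRCm38, Il1r2 (ENSMUSG00000026073, 40074079 to 40125231), Il1r1 (ENSMUSG00000026072, 40225080 to 40317257), Il1rl2, Il1rl1 (ENSMUSG00000026069, 40429570 to 40465415), Il18r1 and Il18rap follow each other on the plus strand within 478 kb. Il1rn (ENSMUSG00000026981, chromosome 2, 24336853 to 24351494, plus strand) ends a second group of 6 ligand genes that spans 198 kb. Il1a (129299610 to 129309972) and Il1b (129364570 to 129371139) lie farther along chromosome 2 on the minus strand. Il1r1 has 2 annotated starts in RefSeq and was the member with the highest adipose level per kilobase in OA-AP mice, and Il1b encodes the ligand of that receptor, so the 250 bases before each of their starts are shown. The Il1r1 windows are chr1:40224830-40225079 and chr1:40266336-40266585 on the plus strand, the Il1b window is chr2:129371140-129371389 on the minus strand (RefSeq, GRCm38.p6), and no exon of GENCODE M21 overlaps any of them. Capitals mark motif matches, a C/EBP match in the first sequence and an NF-kB consensus match in the second.
Il1r1, first start: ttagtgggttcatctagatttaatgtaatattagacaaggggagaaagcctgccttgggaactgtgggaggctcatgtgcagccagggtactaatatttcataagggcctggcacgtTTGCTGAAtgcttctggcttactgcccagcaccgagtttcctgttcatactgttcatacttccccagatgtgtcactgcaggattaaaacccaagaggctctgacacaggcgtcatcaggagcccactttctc
Il1r1, second start: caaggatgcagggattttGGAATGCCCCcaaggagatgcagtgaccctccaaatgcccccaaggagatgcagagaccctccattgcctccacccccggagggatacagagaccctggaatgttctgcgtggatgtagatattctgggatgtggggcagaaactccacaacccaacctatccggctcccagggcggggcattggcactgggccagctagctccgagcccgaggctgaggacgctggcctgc
Il1b: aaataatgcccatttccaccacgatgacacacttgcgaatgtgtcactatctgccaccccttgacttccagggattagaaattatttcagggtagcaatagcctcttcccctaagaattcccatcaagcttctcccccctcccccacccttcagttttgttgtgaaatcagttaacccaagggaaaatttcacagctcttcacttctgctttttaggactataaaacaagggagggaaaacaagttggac

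Motifs were searched on both strands in the windows of all 10 members, 15 windows in all. The NF-kB consensus was found in 1 window, that of Il1r1, with its first base 232 bases before the start (-232), against 3.9% of all 32817 windows in the table. C/EBP (TTGCNNAA) was found for Il1r1 (-133), Il1rl1 (-34) and Il33 (-85), against 9.57% of all windows. AP-1 (TGANTCA) was found for Il1rn (-141) and Il1a (-12), against 6.75%, and GAS (TTCNNNGAA) for Il1r2 (-111) and Myd88 (-46), against 7.01%. These windows of Il1rn, Il1r2 and Myd88 overlap exons of GENCODE M21, and that of Il1a does not. The Il1b window printed above held none of the 4. These matches describe the letters only, and binding was not measured.

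In adipose tissue 8 of the 10 members rose in OA-AP mice and none fell. The background was 12.1% of the 15839 tested genes called higher and 25.1% called in either direction. Il1a had too few counts to be tested, and Il18 was tested and not called. The median log2 fold change over the 9 tested members was 1.63, against -0.0149 over all tested genes. The rises ranged from 1.91-fold for Il1rap to 83.5-fold for the decoy receptor Il1r2, taken as ratios of mean CPM. Il1r2 reached the count needed for testing in its OA-AP libraries only, and it is among the 8 calls and in the median. For these 8 genes the lowest OA-AP library lay above the highest control library. How many of all tested genes did so was not counted.

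Among the ligands, Il1b was at 0.554, 0.678 and 0.987 CPM in controls and at 35.1, 6.35 and 52.9 CPM in OA-AP. All OA-AP libraries stood above all controls, but OA-AP replicate 2 stood well below the other two. The log2 fold change was 5.39 (standard error 0.84, edgeR adjusted p = 0.00438), and it was 4.79 without OA-AP replicate 3 and 5.88 without OA-AP replicate 2. Il33 was at 14.1, 9.24 and 20.5 CPM in controls and at 37.9, 44.1 and 36.2 CPM in OA-AP, a log2 fold change of 1.43 (standard error 0.27, edgeR adjusted p = 0.00804). The OA-AP libraries of Il33 lay close together and the controls were more spread. Il18 was at 7.60, 6.74 and 10.7 CPM in controls and at 6.58, 6.25 and 4.80 CPM in OA-AP. Although each OA-AP library lay under each control library, the log2 fold change of -0.51 was not called (standard error 0.22, edgeR adjusted p = 0.112). Il1a held 3 to 12 counts in controls and 2 to 14 in OA-AP, which overlapped.

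The antagonist Il1rn was at 1.51, 2.16 and 1.67 CPM in control adipose tissue and at 8.24, 17.3 and 23.4 CPM in OA-AP. Its log2 fold change was 3.20 (standard error 0.40, edgeR adjusted p = 0.00204). OA-AP replicate 2, the lowest of its group for Il1b, was the middle one for Il1rn.

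The decoy receptor Il1r2 showed the largest fold change of the 8 members that rose. It was close to absent in control adipose tissue, with 10, 8 and 9 counts or 0.369, 0.339 and 0.306 CPM, and stood at 29.9, 29.4 and 25.4 CPM in OA-AP. The log2 fold change was 6.36 (standard error 0.16, edgeR adjusted p = 1.3e-05), for a gene that reached the count needed for testing in its OA-AP libraries only. The signalling receptor Il1r1 was at 62.1, 44.0 and 41.9 CPM in controls and at 522, 552 and 480 CPM in OA-AP. No library of either group came near the other group, with a log2 fold change of 3.39 (standard error 0.18, edgeR adjusted p = 0.000179).

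The shared accessory chain Il1rap rose less, from 7.82, 7.29 and 7.66 CPM to 14.8, 12.5 and 16.3 CPM, a log2 fold change of 0.93 (standard error 0.14, edgeR adjusted p = 0.00283). Il1rl1, the IL-33 receptor, was at 10.1, 10.9 and 7.52 CPM in controls and at 26.6, 12.1 and 17.6 CPM in OA-AP. OA-AP replicate 2 exceeded the highest control only slightly. The log2 fold change of Il1rl1 was 0.98 (standard error 0.29, edgeR adjusted p = 0.0384), and the call was kept in 5 of 13 alternative fits. It was lost when any control library or OA-AP replicate 1 or 3 was left out, with adjusted p from 0.0592 to 0.111. Counts per gene do not separate the membrane form from the soluble form of Il1rl1. The adaptor Myd88 was at 25.2, 28.7 and 27.4 CPM in controls and at 99.5, 68.0 and 83.4 CPM in OA-AP, a log2 fold change of 1.63 (standard error 0.15, edgeR adjusted p = 0.000609). The other 7 calls were kept in every alternative fit that tested the gene, including the fit without Control replicate 2. Il1r2 was tested in 12 of them, since the fit that needed at least 10 counts in every library dropped it. With a fold change of at least 2 as the threshold, 6 members were called and Il1rap and Il1rl1 were not.

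**Figure D1:**
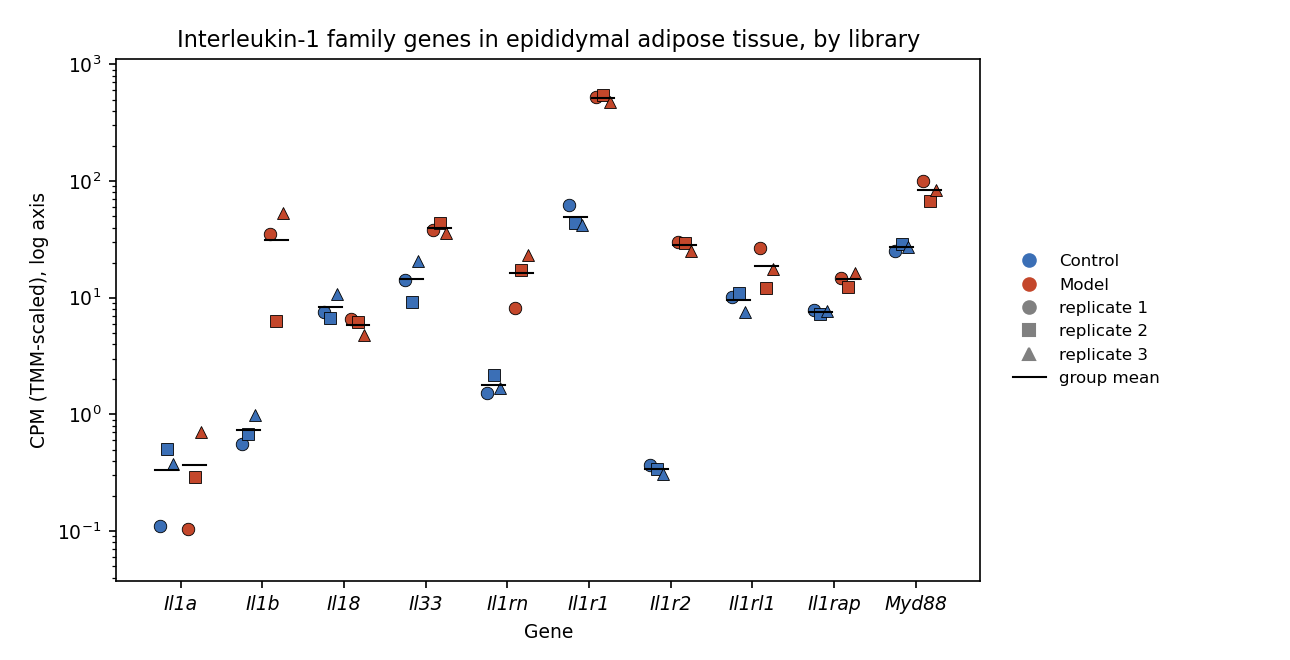
CPM of each interleukin-1 family gene in each adipose library on a log axis, with Control in blue, OA-AP (labelled Model) in red, a marker shape for each replicate and a bar at the group mean. Il1r2 moved from 0.306 to 0.369 CPM in controls to 25.4 to 29.9 CPM in OA-AP, while Il18 was the gene whose OA-AP libraries all lay below the controls.

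Levels of different genes were compared as CPM per kilobase of the deposited gene length. In control adipose tissue Myd88 (10.5 ± 0.674, SD, n = 3), Il18 (8.09 ± 2.01) and Il1r1 (7.76 ± 1.75) led the order, and their ranges over libraries overlapped from each rank to the next. Il33 followed at 5.06 ± 1.96, and Il1b (0.388 ± 0.117), Il1rn (0.322 ± 0.0611), Il1r2 (0.177 ± 0.0164) and Il1a (0.168 ± 0.103) were lowest. In OA-AP adipose tissue Il1r1 stood alone at the top, at 81.4 ± 5.68 CPM per kilobase, above Myd88 at 32.5 ± 6.11. Il1b (16.5 ± 12.3), Il1r2 (14.8 ± 1.29) and Il33 (13.7 ± 1.44) came next, each overlapping its neighbour. Il18 moved from the second to the sixth place at 5.70 ± 0.921, and Il1a stayed last at 0.186 ± 0.157.

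Cell markers changed as well, with some lists higher and others lower. The background here too was 12.1% of all tested genes called higher and 25.1% called in either direction. The summed level of 12 neutrophil markers was 17.9 to 36.4 CPM in control and 188 to 211 CPM in OA-AP adipose tissue, and 6 of the 7 tested members of that list were called higher. Its defining marker Ly6g was near the floor, with 1, 1 and 4 counts in controls and 3, 9 and 13 in OA-AP, which overlapped. After scaling these were 0.0369 to 0.136 CPM and 0.156 to 0.657 CPM, too few counts to read the small gap as a separation. Csf3r, the granulocyte growth factor receptor, went from 3.17 to 6.82 CPM up to 33.0 to 53.8 CPM. Macrophage markers summed to 1250 to 1600 CPM in controls and 1610 to 2160 CPM in OA-AP, with 5 of 13 called higher and 1 lower. Lymphocyte markers summed to 12.8 to 48.3 CPM in controls and 3.42 to 5.76 CPM in OA-AP, with 6 of 9 called lower. Mast cell and group 2 innate lymphoid markers, cells that use the IL-33 receptor, summed to 65.6 to 71.1 CPM and 37.8 to 50.0 CPM, with 3 of 8 called lower. Fibroblast and mesothelial markers, from cells known to make IL-33, summed to 3680 to 4880 CPM and 2300 to 2770 CPM, with 4 of 10 called lower. The part of cell composition in the changes of the members was not tested.

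In the pancreas 1 of the 10 members was called. The background was 16.2% of the 12884 tested genes called higher and 29.8% called in either direction. Only 5 members had enough counts to be tested, and the member called was Myd88, which was higher in OA-AP mice. It was at 4.12 and 3.79 CPM in controls and at 17.0, 16.8 and 30.2 CPM in OA-AP. The rise was present in all 3 OA-AP libraries, with a log2 fold change of 2.43 (standard error 0.32, edgeR adjusted p = 0.00151), and the call was kept in all 12 alternative fits.

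The receptor Il1r1 was at 4.12 and 4.19 CPM in control pancreas and at 7.35, 5.38 and 9.41 CPM in OA-AP. The groups did not overlap, but the log2 fold change of 0.83 missed the threshold (standard error 0.28, edgeR adjusted p = 0.054). Il1r1 was called in 4 of 12 alternative fits, among them that without OA-AP replicate 2 (log2 fold change 1.01, adjusted p = 0.0176). The accessory chain Il1rap was at 3.95 and 3.69 CPM in controls and at 2.57, 2.80 and 3.14 CPM in OA-AP. This log2 fold change of -0.43 was not called (standard error 0.27, edgeR adjusted p = 0.258), and with library totals in place of TMM it was 0.27. That scaling moved the median over all pancreas genes from 0.0391 to 0.749, so relative to the median Il1rap stood at -0.467 and -0.477.

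For Il1b, Il33, Il1r2, Il1rn and Il1rl1 most of the OA-AP counts in the pancreas lay in 1 library, OA-AP replicate 3. Il1b was at 0.429 and 0.499 CPM in controls and at 0.682, 0.229 and 9.78 CPM in OA-AP, so that replicate 3 stood 14.3-fold above the next library and replicate 2 below both controls. Its log2 fold change was 2.93 with a standard error of 1.98 and was not called (edgeR adjusted p = 0.312). Il33 was at 1.37 and 0.399 CPM in controls and at 3.20, 0.915 and 12.0 CPM in OA-AP, with a log2 fold change of 2.56 (standard error 1.28, edgeR adjusted p = 0.182). It was 1.13 without replicate 3, and Il33 was called without OA-AP replicate 2, at 3.05 (adjusted p = 0.0449).

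Of the 5 genes with too few counts to be tested, Il1r2, Il1rn and Il1rl1 had their highest level in that library too. Il1r2 held 0 and 1 counts in controls and 4, 8 and 135 in OA-AP, a ratio of pooled, scaled counts of 57.3 with an exact 95% interval of 10.1 to 2280 that covers counting error only. Il1rn had 0 counts in both control libraries and 3, 3 and 41 counts in OA-AP. The OA-AP mean was 2.96-fold above a floor of 3 counts per control library. This rests on OA-AP replicate 3, since OA-AP replicates 1 and 2 held no more than 3 counts themselves. Il1rn was called by DESeq2 (adjusted p = 0.0203) and by edgeR with no filter on low counts (adjusted p = 0.00031). Il1rl1 held 1 and 1 counts in controls and 1, 0 and 24 in OA-AP, a ratio of 4.87 with an interval of 1.21 to 42.4. OA-AP replicate 3 thus held 91.7% of the OA-AP counts of Il1b, 91.8% of those of Il1r2, 87.2% of those of Il1rn and 96% of those of Il1rl1. Il18 held 6 and 4 counts in controls and 0, 4 and 2 in OA-AP. Il1a had 0 counts in controls and 3, 0 and 0 in OA-AP.

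OA-AP replicate 3 was the highest of the 5 pancreas libraries for 7 of the 10 members, and its share over all genes was not counted. It also had the highest sum of neutrophil markers, 109 CPM, against 16.0 and 4.63 CPM in the other OA-AP libraries and 2.06 and 2.89 CPM in controls. In it 11 of the 12 neutrophil markers had counts, Ly6g among them with 11. The acinar list held 80.8% and 82.4% of the counts in controls and 66.3% to 68.9% in OA-AP, with 67.9% in replicate 3. Macrophage markers summed to 142 CPM in that library, 87.7 and 87.0 CPM in the other OA-AP libraries and 95.3 and 48.5 CPM in controls. Of 12 tested macrophage markers edgeR called 0 higher and 1 lower, against 29.8% of all tested genes called in either direction. The macrophage marker Adgre1 was at 3.43 and 0.598 CPM in controls and at 0.998, 2.12 and 0.785 CPM in OA-AP, lowest of that group in replicate 3. Of the neutrophil markers 8 were tested by edgeR, which called 0, with 1 at an unadjusted p under 0.05. DESeq2, run on every gene with any count, called 6 of the whole list, all of them higher. The defining fat cell markers Adipoq and Plin1 held at most 3 counts in each pancreas library, although a summed adipocyte list, led by Pnpla2 and Fabp4, was 47.0 to 61.9 CPM in controls and 135 to 272 CPM in OA-AP. Ductal epithelial markers summed to 445 and 428 CPM in controls and to 844, 646 and 1450 CPM in OA-AP, again highest in replicate 3. That sum was led by Krt8 and Krt18, and of 9 tested ductal markers 3 were called higher and 2 lower, 55.6% in all. The part of cell composition in the pancreas values was not tested.

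**Figure D2:**
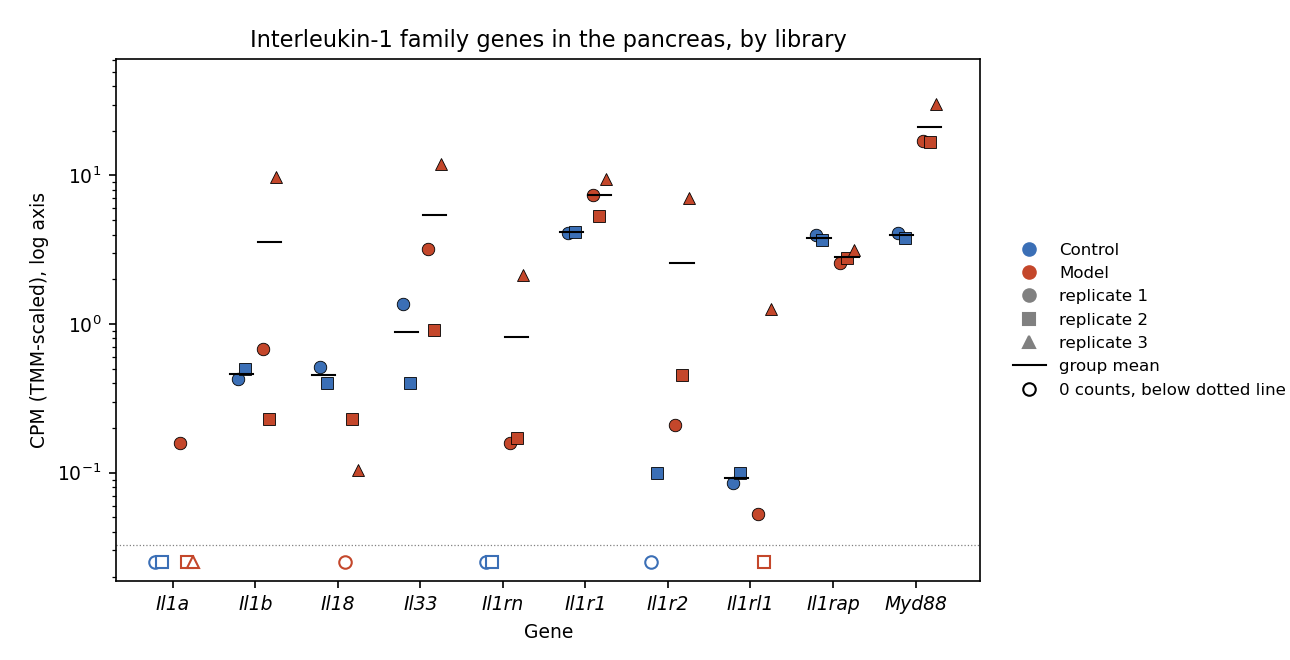
CPM of each interleukin-1 family gene in each pancreas library on a log axis, with Control in blue, OA-AP (labelled Model) in red and open markers for libraries with 0 counts. The triangle of OA-AP replicate 3 is the highest point for Il1b, Il33, Il1rn, Il1r1, Il1r2, Il1rl1 and Myd88, and Myd88 is the gene at which all 3 OA-AP libraries stand far above both controls.

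Per kilobase, Myd88 led in the pancreas too, at 1.53 ± 0.0906 CPM per kilobase (SD, n = 2) in controls and 8.27 ± 2.98 (SD, n = 3) in OA-AP. In OA-AP its range did not meet that of Il1b, next in order at 1.87 ± 2.83. Il33 (1.86 ± 2.03), Il1r2 (1.35 ± 2.04) and Il1r1 (1.16 ± 0.317) overlapped with their neighbours. Of these, Il1r1 was the one whose SD was small beside its mean.

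Whether a change differed between the tissues was tested with the tissue by condition term over all 11 libraries. The term was called for 2 of the 10 members, at an adjusted p under 0.05, against 21.3% of the 17046 genes in that fit. The members' share was thus near that of all genes. The log2 fold change of Il1r1 was larger in adipose tissue than in the pancreas by 2.55 (standard error 0.33, edgeR adjusted p = 0.000322), and that of Il1rap by 1.35 (standard error 0.26, edgeR adjusted p = 0.00363). The difference for Il1r1 was called in 18 of 18 alternative fits and that for Il1rap in 17, the exception being library totals alone, at 0.51 (adjusted p = 0.159). For Myd88 the difference was -0.82 (standard error 0.36, edgeR adjusted p = 0.13), and it was -1.63 and called with library totals alone (adjusted p = 0.00125). For Il1b the difference of 2.41 had a standard error of 2.59 (edgeR adjusted p = 0.575), and was not detectable at this spread. Without pancreas OA-AP replicate 3 it was 5.36 (edgeR adjusted p = 0.0993), still not called.

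**Figure D3:**
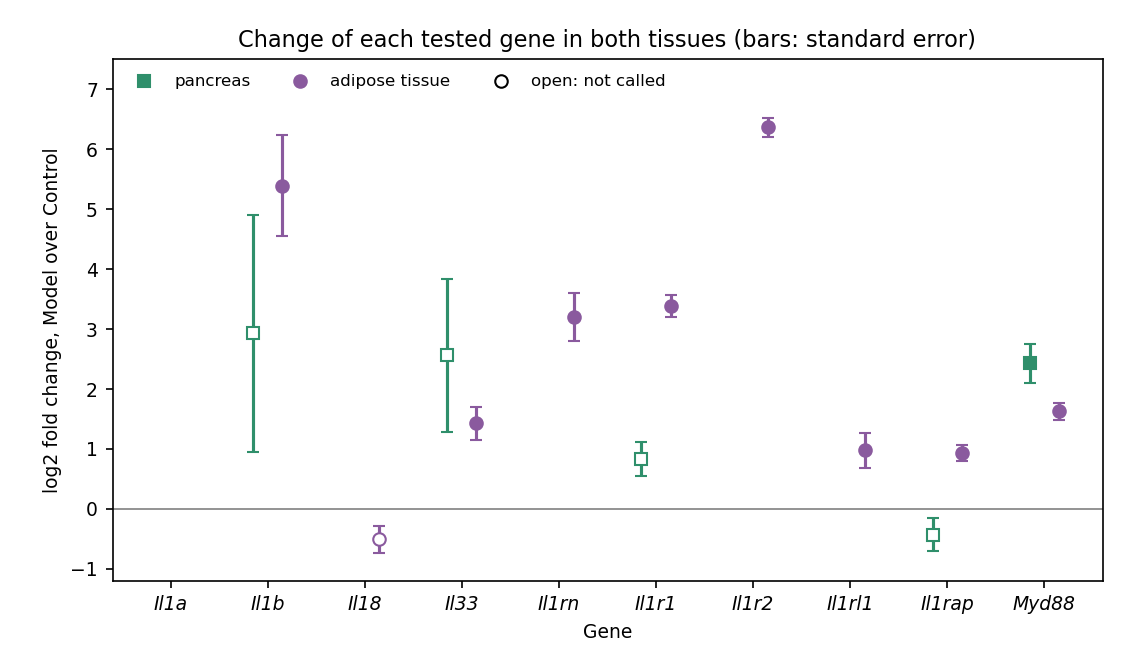
Log2 fold change of OA-AP (labelled Model) over Control for each tested member, with squares for the pancreas, circles for adipose tissue, bars of 1 standard error and open symbols for genes not called. Adipose values are called for 8 genes with short bars for Il1r2 (6.36) and Il1r1 (3.39), and the pancreas values of Il1b (2.93) and Il33 (2.56) have the longest bars.

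The balance of inhibitor and agonist was followed as the ratio of counts within a library, which is free of the library scaling. It is not per length and serves only to compare groups. For Il1rn to Il1b in adipose tissue the ratio was 2.73, 3.19 and 1.69 in controls and 0.235, 2.72 and 0.443 in OA-AP. OA-AP replicate 2 kept a ratio in the control range, and the other 2 were lower. With 0.5 added to each count, the mean log2 ratio differed by -1.88 (two-sided exact permutation p = 0.3, where 0.1 is the smallest possible). In the pancreas Il1rn had no counts in controls and the ratio was 0.231, 0.75 and 0.219 in OA-AP, a difference of 1.96 in mean log2 ratio (exact permutation p = 0.1, the smallest possible). The control value there is set by the added 0.5, and with 1 added to each count the difference was 1.15.

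For the decoy against the signalling receptor, Il1r2 to Il1r1, the adipose ratio was 0.00594, 0.0077 and 0.00732 in controls and 0.0573, 0.0532 and 0.0529 in OA-AP. The groups stood far apart with little spread, by 2.89 on the log2 scale (exact permutation p = 0.1, the smallest possible). In the pancreas the ratio was 0 and 0.0238 in controls and 0.0286, 0.0851 and 0.75 in OA-AP. This difference of 2.76 (exact permutation p = 0.3) was 1.49 without OA-AP replicate 3. Adjusted over the 4 ratio tests, the p-values were 0.2 or 0.3, and this design cannot reach 0.05.

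**Figure D4:**
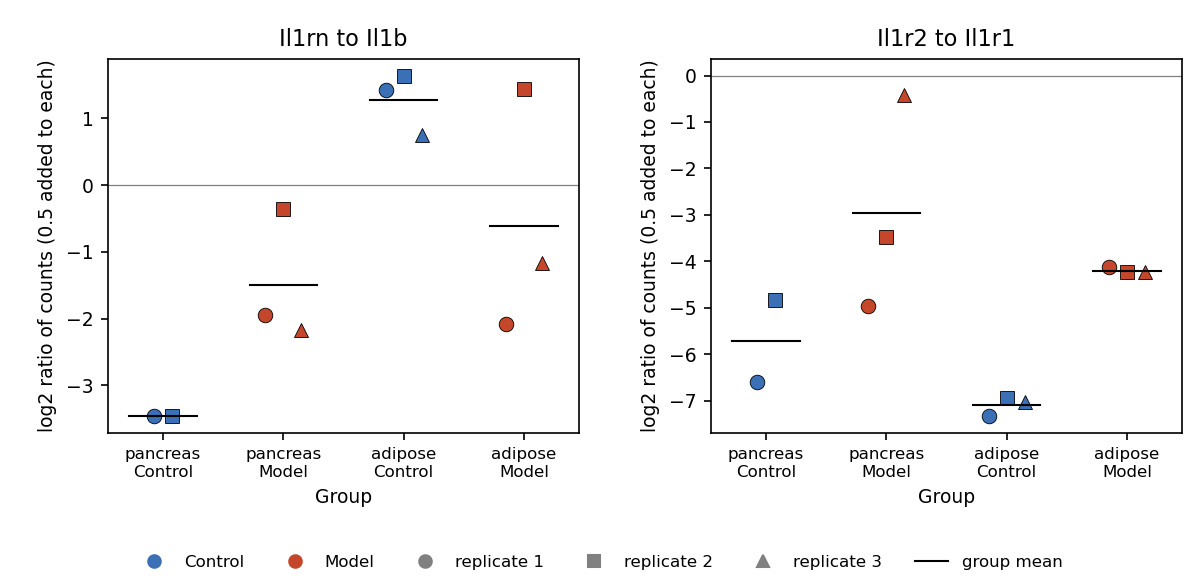
Log2 ratio of counts, with 0.5 added to each, of Il1rn to Il1b and of Il1r2 to Il1r1 in each library of the 4 groups, with a bar at each group mean. The adipose ratio of Il1r2 to Il1r1 is tight in both groups at means of -7.09 and -4.20, whereas the ratio of Il1rn to Il1b in OA-AP adipose tissue has replicate 2 among the controls.

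Other genes of the pathway were taken from hand-written lists of 72 genes, chosen with earlier results of these data known. In adipose tissue 30 of the 62 tested ones were called higher and 7 lower, 59.7% in all, against 25.1% of all tested genes. Among the remaining ligands and receptors, the clustered neighbours of members moved with them in part. Il1f9, which encodes the agonist IL-36γ, held 0, 0 and 1 counts in controls and 63, 65 and 128 in OA-AP, a pooled ratio of 342 with an exact interval of 60.9 to 13600 (edgeR adjusted p = 0.000562). Its receptor Il1rl2, which sits between Il1r1 and Il1rl1, was at 9.02 to 10.2 CPM in controls and at least 23.8 CPM in each OA-AP library, a log2 fold change of 1.44 (standard error 0.11, edgeR adjusted p = 0.000402). Il18rap, the accessory chain of the IL-18 receptor, showed a log2 fold change of 1.19 (standard error 0.19, edgeR adjusted p = 0.00415). Il18r1, its partner and neighbour, was at 4.21 to 4.90 CPM in controls and 2.83 to 7.62 CPM in OA-AP, a log2 fold change of 0.13 that was not called (adjusted p = 0.79). Il1f5, Il1f6, Il1f8 and Il1f10, the other genes of the ligand cluster, had 0 counts in each library of both tissues.

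Of the genes for signalling proteins directly below the receptors, 3 of 19 were called higher in adipose tissue and 2 lower, 26.3% in all, which is near the 25.1% of all tested genes. Map3k8, a MAP kinase kinase kinase, rose by 1.57 on the log2 scale and Irak3, an IRAK family member that restrains signalling, by 0.81, while Tab3, a partner of the kinase TAK1, fell by 1.45. Ube2n, the ubiquitin-conjugating enzyme that works with Traf6, rose by 0.60. The calls of Irak3 and Ube2n were lost without some single libraries, Irak3 without Control replicate 1 or 3 or OA-AP replicate 2 and Ube2n without Control replicate 3 or OA-AP replicate 3. That of Ube2n was lost as well with library totals alone, with no filter on low counts and with at least 10 counts in every library. Genes of cytokine maturation went both ways, with 6 of 14 called higher and 5 lower, 78.6% in all, against 25.1% of all tested genes. The inflammatory caspase Casp4 was at 14.4 to 16.8 CPM in controls and 49.3 to 62.7 CPM in OA-AP (log2 fold change 1.86), and the pyrin gene Mefv rose by 3.23 and Casp8 by 0.83. The inflammasome sensor Nlrp1b fell by 1.59.

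Of the genes known to respond to IL-1, 18 of 23 tested ones were called higher in adipose tissue and none lower, with a median log2 fold change of 3.14. That was 78.3%, against 25.1% of all tested genes called in either direction and 12.1% called higher. The neutrophil chemokine Cxcl5 held 0, 1 and 3 counts in controls and 974 to 1893 in OA-AP (edgeR adjusted p = 0.000218). It reached the count needed for testing in its OA-AP libraries only. The mitochondrial superoxide dismutase Sod2 rose by 2.14 on the log2 scale and Zc3h12a, an RNase that degrades cytokine transcripts, by 1.65. These genes also respond to other inflammatory signals, which the data cannot separate from IL-1.

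In the pancreas 11 of the 46 tested pathway genes were called higher and 3 lower, 30.4% in all, which is near the 29.8% of all tested genes. Of the other ligands and receptors 1 and 2 were tested, and edgeR and DESeq2 called 0, with 0 at an unadjusted p under 0.05 in edgeR. Il1f9 held 0 counts in controls and 3, 1 and 29 in OA-AP, with OA-AP replicate 3 again on top. Of 18 signalling genes 5 were called, 27.8% and likewise near that background. Higher were Ube2n (log2 fold change 0.95), Tab1 (0.75), Irak4 (1.16) and Irak3 (1.09, named after its value was seen), and Irak1 fell by 0.72. Without Control replicate 2 the calls of Ube2n, Tab1, Irak4 and Irak1 were lost. Those of Ube2n and Tab1 were also lost without Control replicate 1, and those of Tab1 and Irak4 without OA-AP replicate 1. Irak1 was at -0.0051 with library totals alone and not called. Nek7, a kinase that activates the NLRP3 inflammasome, was at 23.2 and 21.6 CPM in controls and 75.7, 64.7 and 98.4 CPM in OA-AP, a log2 fold change of 1.83 (standard error 0.20, edgeR adjusted p = 0.000573). Pycard, the adaptor of inflammasomes, fell by 1.62, and its call was lost without either control library, without OA-AP replicate 1 and with library totals alone.

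Among response genes of the pancreas 6 of 20 were called higher and 1 lower by edgeR. That was 35% in all, against 29.8% of all tested genes. DESeq2 was run on every gene with any count, so its 12 calls higher and 13 in all came from more listed genes than these 20. Over all genes it called 3598 of 23571, a set not filtered as that of edgeR was. Its counts therefore cannot be set against the shares of edgeR. Lcn2, the iron-binding lipocalin 2, was at 0.601 and 1.10 CPM in controls and at 178, 102 and 306 CPM in OA-AP, a log2 fold change of 7.86 (standard error 0.74, edgeR adjusted p = 0.00126). Saa3, an acute-phase protein, was at 0.343 and 0.0997 CPM in controls and at 14.1, 7.15 and 13.7 CPM in OA-AP, a log2 fold change of 5.62 (standard error 0.56, edgeR adjusted p = 0.00047). Unlike Il1b, these genes were high in all 3 OA-AP libraries. Bcl3, an atypical inhibitor of NF-κB, rose by 3.82 and the protease Mmp3 by 3.43. The calls of Lcn2, Saa3, Bcl3 and Mmp3 were kept in all 11 alternative fits that tested them. In contrast, Cxcl5 held 0 counts in controls and 27, 6 and 467 in OA-AP and was not called (edgeR adjusted p = 0.244).

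**Figure D5:**
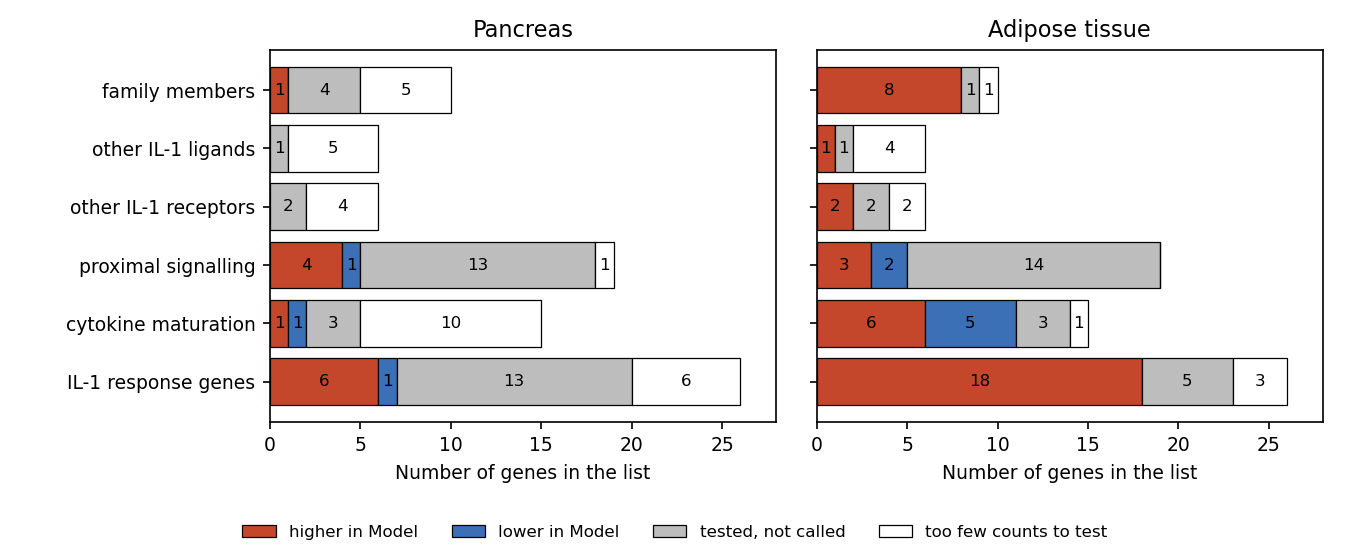
Number of genes in the family and in each of 5 pathway lists that were called higher in OA-AP (labelled Model), called lower, tested but not called, or held too few counts to test, in the pancreas and in adipose tissue. Response genes called higher number 6 in the pancreas and 18 in adipose tissue, and the family members 1 and 8.

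Exons of 4 members overlap a gene on the other strand, and the strand setting of the counting is not given in the sources used here, so reads in the shared bases cannot be told apart. Myd88 shares 290 exon bases, 11.3% of its own, with Acaa1a, a peroxisomal thiolase gene. In counts without library scaling, Acaa1a held 2366 to 3379 in control and 1590 to 2207 in OA-AP adipose tissue, and 761 to 800 and 1593 to 1911 in the pancreas. After TMM scaling the library totals were larger in controls than in OA-AP in adipose tissue, and smaller in the pancreas. A direction of change for Acaa1a is therefore not read from these counts. Il1b shares 25 bases with Il1bos, which held at most 7 counts in each library. Il1a shares 222 bases with Gm14023 and Il1rap 552 with Gm20319, at most 19 and 4 counts.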

How the data were processed

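Whole-tissue RNA was sequenced as paired-end reads by the authors, who trimmed them with Trim Galore (0.6.6), checked them with fastp (0.20.1), aligned them to GRCm38 by STAR and summed them over genes by featureCounts (2.0.1). The deposited values are raw counts per gene and library, without normalization, in 1 table per tissue. The annotation release is not given in the sources used here. The pancreas table also lists a gene length, used here only for levels per kilobase, in both tissues.

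Groups followed the labels. Genes passing edgeR's filterByExpr were tested within each tissue with edgeR (4.0.16, R 4.3.3), TMM factors and the robust quasi-likelihood test, and the tissue by condition term was tested over all 11 libraries. A gene near absent in 1 group could pass this filter through the other group alone. Standard errors were derived from the fold change and its F statistic. A call needed an adjusted p below 0.05 together with a 1.5-fold change or more (the adjusted p alone for the tissue by condition term). With 2 control libraries the pancreas is the less precise tissue. The study used DESeq2, which was an alternative here (1.42.0), as were its size factors, library totals, TMM without acinar genes, no filter or at least 10 counts in every library, a fold change of 2 or none, 1 added to the counts of ratios in place of 0.5, each library left out and the replicate number as a block. The fits were tested on simulated data.

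Same-numbered libraries did not deviate together, with correlations of -0.0152 to 0.0905 between the pancreas and adipose tissue and -0.161 to 0.0317 between control and OA-AP libraries, so the numbers were not taken to pair them. Each pair of replicates differed beyond counting noise (chi-square over degrees of freedom at least 7.56). Since PCR copies are not separate molecules, intervals and floors of 3 counts cover counting error only. Promoter windows came from RefSeq, and protein sequences were not used here.

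The 10 members and all lists were chosen with earlier results of these data known. Named are all members in both tissues, up to 4 called genes with the smallest p of each pathway list and tissue, and the list genes that neighbour members on their chromosomes. Irak3 and Cxcl5 in the pancreas and the overlapping genes on the other strand were added once values were known. Marker genes are given only beside a result.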

Additional observations from a re-analysis of the deposited data

Results flagged for a closer look

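The changes of 2 of the 10 members differed between the tissues by the test of the tissue by condition term, which called 21.3% of all genes. The log2 fold change of Il1r1 in adipose tissue exceeded that in the pancreas by 2.55, with every OA-AP library above every control library in both tissues. That of Il1rap exceeded it by 1.35, with each OA-AP library above the controls in adipose tissue and, in TMM-scaled CPM, below them in the pancreas. The pancreas change of Il1rap was not called (edgeR adjusted p = 0.258). Scaled by library totals alone, its pancreas OA-AP libraries lay above the controls. The difference between tissues was then 0.51 and not called. The part of cell composition in these differences was not tested. No group held enough libraries to test for a single library far from the others.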

How the results depend on the processing

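Members called in the pancreas numbered 1, and 2 with DESeq2, with library totals alone, with at least 10 counts in every library and with the replicate block, 3 with no filter on low counts, and 1 to 3 with 1 library left out, the 3 without OA-AP replicate 2. Pathway genes called there numbered 14, and 28 with library totals alone, 9 at a fold change of at least 2, and 5 to 17 with 1 library left out, falling to 5 without Control replicate 2 and 7 without Control replicate 1. The cause was not tested. With library totals alone 6349 pancreas genes were called, 5843 of them higher, against 3834 and 2090 with TMM.

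Signs turned for log2 fold changes that were not called. Il1rap in the pancreas was 0.27 with library totals alone and Il1b there -0.025 with the replicate block, which sets the unpaired OA-AP replicate 3 aside. Il18r1 was -0.030 in adipose tissue with library totals alone, -0.32 without OA-AP replicate 1 and up to 0.41 without another library, and in the pancreas from -0.19 without Control replicate 1 to 1.41 without Control replicate 2. The difference between tissues for Il33 ran from -2.35 without pancreas Control replicate 1 to 0.24 without pancreas OA-AP replicate 3. The counts in adipose tissue, between 6 and 8 members over all settings and between 28 and 41 pathway genes, and that of 2 members between tissues stayed within 1.5 times, and all 4 ratios kept their sign. Of 693 values under an alternative, 640 kept direction and side of the threshold, 33 lost a call or fell, 14 gained one or rose, and 6 turned. The block changed no other call of a member than to end that of Il1rl1 in adipose tissue (adjusted p = 0.0555) and to call Il33 in the pancreas (log2 fold change 1.21). In the pancreas 5 members had too few counts to be tested at this depth, and their levels there were low.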
